A study of Bos taurus with 20 samples.

Results

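GADD45G, PLK2, DUSP5, BTG2 and PMEPA1 are inducible regulators of growth and stress responses. They were followed in bovine endometrium through all clones of the 18KO array whose single gene symbol in the array's probe-to-gene table is one of these names. This rule gave 11 of 1536 clones and 5 of the 72 genes with a name on that array: 6 clones of PLK2, 2 of GADD45G and 1 each of DUSP5, BTG2 and PMEPA1. PLK2 was among the most often represented names, since only 2 named genes had more clones and the median named gene had 1. On the companion 18KB array 0 of 1536 clones carried these names, so the 18KO array alone was used.

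The samples came from Simmental heifers whose cycles had been synchronised with the prostaglandin analogue Cloprostenol. The 4 pregnant heifers, aged 17 to 20 months, were inseminated with sperm of a single bull, and on day 18 an intact conceptus was found and taken out of the uterus. The 6 control heifers, aged 18 to 22 months, received the supernatant of centrifuged sperm from that bull, were at day 18 of the oestrous cycle and had no conceptus. Tissue was intercaruncular endometrium of the caudal horn on the ipsilateral side, a mixture of cell types. Each animal gave 1 18KO array and 1 18KB array, hybridised with cDNA carrying radioactive phosphorus. In such bulk tissue fewer cells of a type and less RNA per cell cannot be told apart. The 18KO clones come from a subtracted library enriched for transcripts of control animals, and the authors sequenced mainly clones that they had found to differ between these same animals. A lower level in pregnant animals is therefore the direction for which these genes came to be named, and their p-values are not independent evidence of it.

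The 5 genes act at different points of the circuits by which cells answer growth factors and stress. GADD45G is a small protein induced by stress and growth arrest signals that binds the kinase MAP3K4 upstream of the p38 and JNK pathways, and BTG2 is an antiproliferative protein of the BTG/TOB family and a target of p53. PLK2 is a polo-like kinase first known as a serum-inducible gene, and DUSP5 is a nuclear phosphatase that removes activating phosphates from ERK kinases and is itself induced by ERK signalling. PMEPA1 is a membrane protein induced by transforming growth factor beta that binds SMAD proteins and dampens that pathway. In cattle, day 18 falls in the time when the conceptus secretes interferon tau and before it attaches to the endometrium.

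The comparison asked how transcript levels of pregnant endometrium differ from those of the cyclic endometrium of the same day. GADD45G fell to a geometric mean intensity of 0.208 in pregnant animals, against 1.96 in controls, which is 9.44-fold lower as deposited. PLK2 was 6.36-fold lower and PMEPA1 4.22-fold lower. The order of GADD45G and PLK2 rests on dim GADD45G values: with a floor at the array's 10th percentile their changes were -2.41 and -2.63 on the log2 scale. DUSP5 had all pregnant values below all control values but did not pass the threshold (log2 fold change -1.83 ± 0.51, limma adjusted p = 0.0305), and BTG2 was not separated from controls (-0.41 ± 0.58, limma adjusted p = 0.707). Changes are given as the log2 intensity of pregnant minus that of control animals ± the standard error of this difference. A feature was called at a limma adjusted p under 0.01 and a change of at least 2-fold, with adjustment over 1471 features, namely the 72 gene means and every clone without a single name.

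By this rule 3 of the 5 genes were called lower, against 3.87% of all features and 29.2% of the named genes. In 4 of the 5 all pregnant animals lay below all controls, as in 9.59% of all features and 62.5% of the named genes. Over clones, 9 of 11 were called lower and 10 of 11 had groups that did not overlap, against 6.32% and 12.2% of all 1536 clones. Of the 11 clones, 6 are of PLK2 and 2 of GADD45G on the same arrays, so they are not separate results. Only 137 of the 1536 clones carry a single name. The median log2 fold change was -2.08 over the 5 genes, -0.02 over all features and -1.34 over the named genes.

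**Figure D1:**
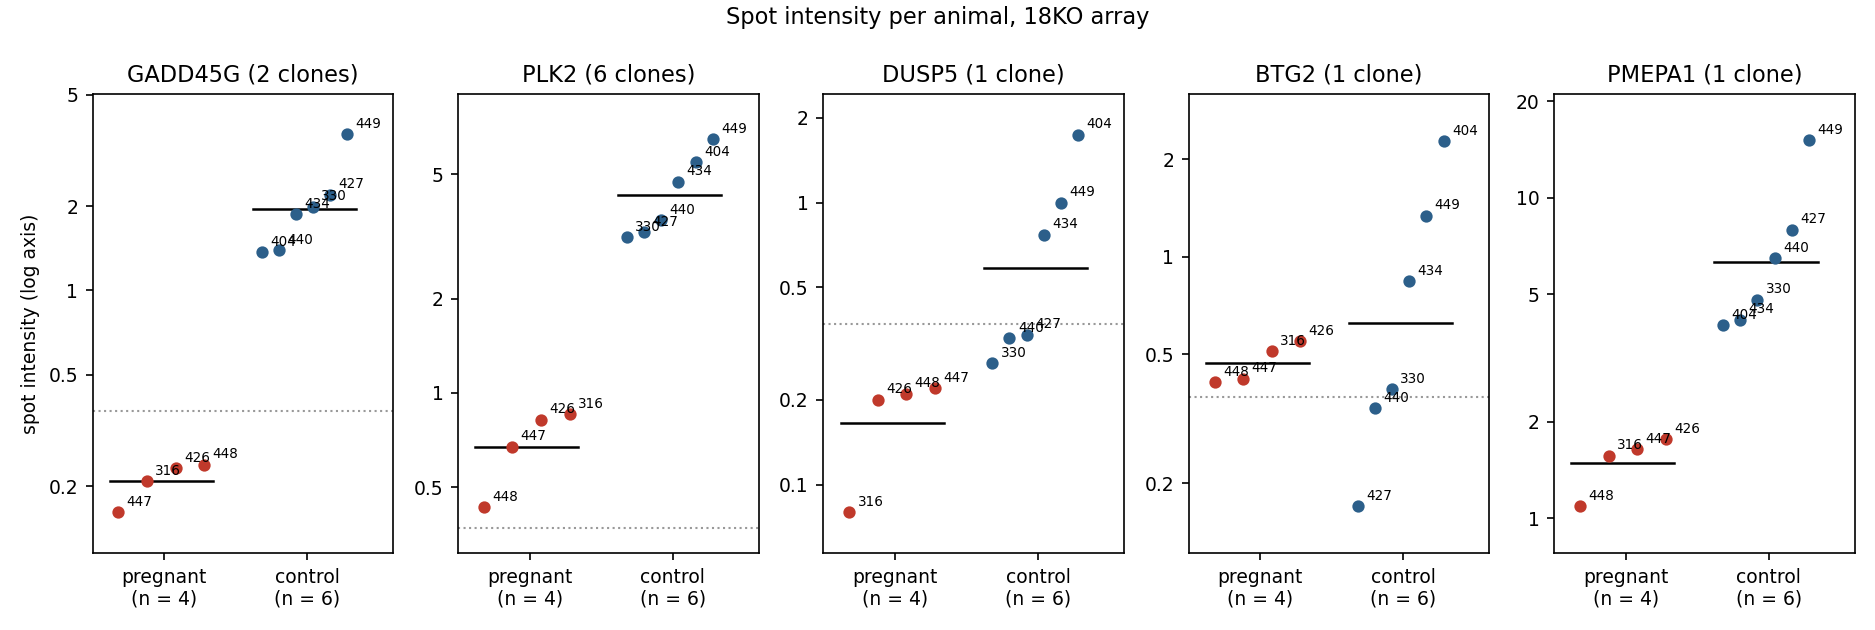
Spot intensity of each gene (log axis, geometric mean over its clones) in 4 pregnant and 6 control animals, labelled by animal number; black bars are geometric means and the dotted line is the array's 10th percentile (0.37). Pregnant animals sit below all controls for GADD45G, PLK2, DUSP5 and PMEPA1, while BTG2 in pregnant animals (0.41 to 0.55) falls inside the control range (0.17 to 2.28).

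GADD45G was measured by a pair of clones. The brighter clone had intensities of 0.31, 0.20, 0.13 and 0.30 in pregnant animals 316, 426, 447 and 448, against 2.15, 1.86, 3.53, 2.32, 1.69 and 4.19 in controls 330, 404, 427, 434, 440 and 449. The other clone had 0.14, 0.27, 0.20 and 0.19 in the same pregnant animals, against 1.85, 1.01, 1.37, 1.52, 1.15 and 3.11 in the controls. Every pregnant value was below every control value in both clones, and all 8 pregnant values were under the 10th percentile of the array, 0.37. The clones gave log2 fold changes of -3.48 ± 0.34 and -2.99 ± 0.32, and their mean gave -3.24 ± 0.29 (95% interval -3.87 to -2.61, limma adjusted p = 5.91e-06). With a floor at the 10th percentile, which the pregnant values do not reach, the change was -2.41 and still called. The two-sided exact permutation p of the gene mean was 0.00476, the smallest that the 210 splits of 10 animals can give.

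PLK2 was read by 6 clones, all called lower, with log2 fold changes from -3.01 to -2.13. Its geometric mean intensity was 0.855, 0.822, 0.674 and 0.431 in pregnant animals 316, 426, 447 and 448, against 3.14, 5.47, 3.26, 4.74, 3.56 and 6.46 in controls 330, 404, 427, 434, 440 and 449. The highest pregnant value thus stood well under the lowest control value, and the spread within each group was about equal (SD of 0.45 log2 units in pregnant and 0.43 in control animals). The fitted change was -2.67 ± 0.29 (95% interval -3.30 to -2.04, limma adjusted p = 3.32e-05), with an exact permutation p of 0.00476. Unlike GADD45G, PLK2 hardly depended on dim values: 2 of its 24 pregnant values were under the 10th percentile, and with a floor there the change was -2.63.

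The smallest change among the PLK2 clones was that of the clone brightest on average, which had 1.66, 1.65, 1.68 and 0.92 in pregnant animals 316, 426, 447 and 448, against 5.22, 8.35, 9.67, 5.94, 4.25 and 5.67 in controls 330, 404, 427, 434, 440 and 449 (-2.13 ± 0.29). The clone with the largest change of the 6 had 0.91, 0.81, 0.63 and 0.27 in those pregnant animals, against 3.46, 6.60, 2.45, 6.60, 3.92 and 8.50 in those controls (-3.01 ± 0.41). The clones also ordered the animals differently, with control 427 highest in the first and control 449 in the second. Deviations from the group means correlated between PLK2 clones with a median r of 0.53 over 15 pairs, from -0.12 to 0.91, and at 0.34 between the GADD45G clones, in each case over 10 animals that share their arrays.

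**Figure D2:**
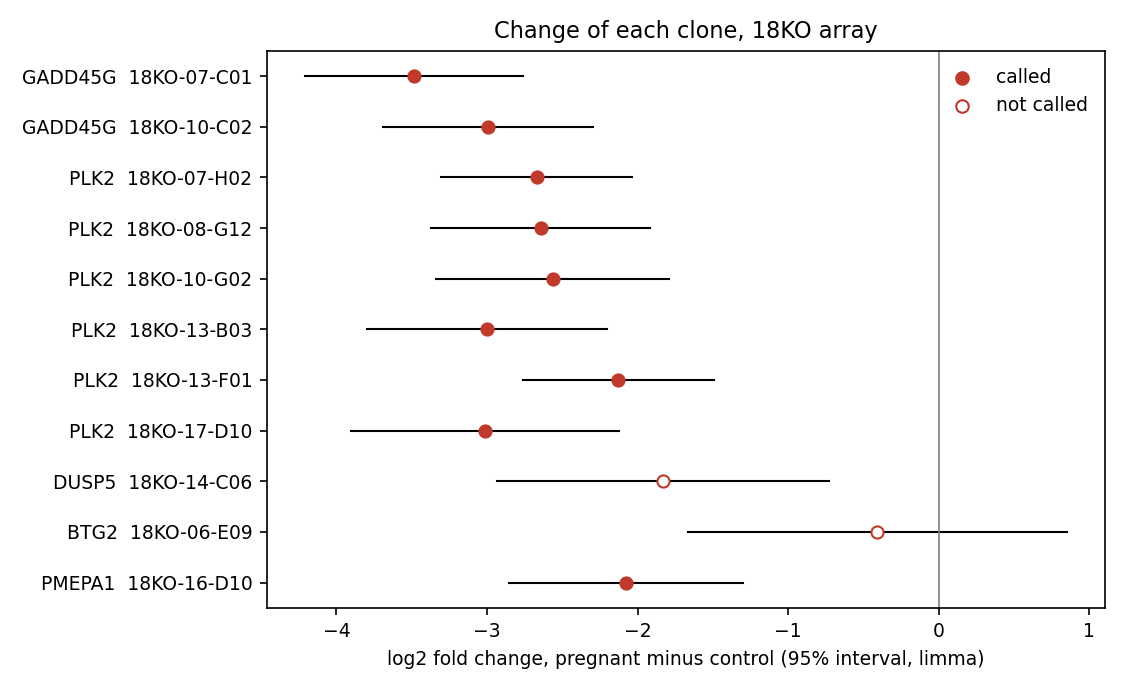
Log2 fold change, pregnant minus control, of each of the 11 clones with its 95% interval from limma; filled points are called. All 6 PLK2 clones and both GADD45G clones lie below -2, and the interval of BTG2 (-1.67 to 0.85) spans 0.

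DUSP5 had intensities of 0.08, 0.20, 0.22 and 0.21 in pregnant animals 316, 426, 447 and 448, against 0.27, 1.74, 0.34, 0.77, 0.33 and 1.00 in controls 330, 404, 427, 434, 440 and 449. The groups did not overlap, but the gap between them was narrow (0.22 in the highest pregnant animal, 0.27 in the lowest control), and controls 404, 449 and 434 accounted for the high values. The 95% interval of the change was -2.92 to -0.74 and its exact permutation p was 0.019. All 4 pregnant animals and 3 of the 6 controls were under the 10th percentile of the array. With a floor there the change was -0.79 (limma adjusted p = 0.294).

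The lowest DUSP5 value belonged to pregnant 316, whose 18KO array was hybridised later together with 2 other samples and scaled by its ratios to them. Without this animal the change was -1.48 (limma adjusted p = 0.109). Whether the later hybridisation bears on the DUSP5 value was not tested. The changes of GADD45G, PLK2 and PMEPA1 without pregnant 316 were -3.24, -2.79 and -2.10, and all 3 were called.

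BTG2 had intensities of 0.51, 0.55, 0.42 and 0.41 in pregnant animals 316, 426, 447 and 448, against 0.39, 2.28, 0.17, 0.84, 0.34 and 1.34 in controls 330, 404, 427, 434, 440 and 449. The pregnant animals lay close together and the controls fell on both sides of them, with 3 controls above all pregnant animals and 3 below. Controls 427 and 440 were under the array's 10th percentile, where the size of a difference is least certain. The SD of log2 intensity was 0.21 in pregnant animals and 1.39 in controls, where the medians over all features were 0.36 and 0.53, and 2.18% of features had a control SD at least as large. The 95% interval of the change, -1.65 to 0.84, allows a level 3.14-fold lower in pregnant animals as well as a higher one, and the exact permutation p was 0.586.

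PMEPA1, the member tied to transforming growth factor beta, had intensities of 1.57, 1.77, 1.64 and 1.09 in pregnant animals 316, 426, 447 and 448, against 4.81, 4.00, 7.96, 4.17, 6.47 and 15.11 in controls 330, 404, 427, 434, 440 and 449. Every pregnant animal was below every control, and control 449 stood highest. The change was -2.08 ± 0.36 (95% interval -2.85 to -1.31, limma adjusted p = 0.00203), with an exact permutation p of 0.00476. None (0) of its values was under the 10th percentile, so the floor left the change as it was. Without pregnant 448, the dimmest of the 18KO arrays, the change was -1.93 and missed the threshold (limma adjusted p = 0.0116). Without control 449, the brightest, it was -1.82 and called.

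**Figure D3:**
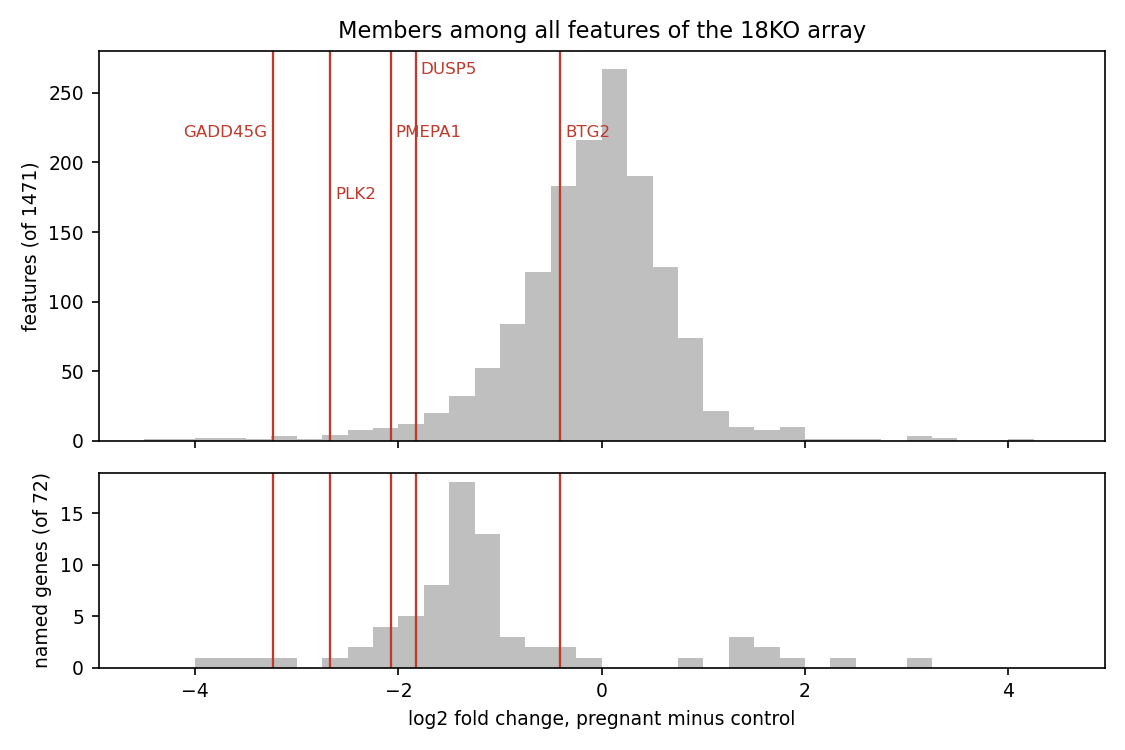
Distribution of log2 fold changes, pregnant minus control, over 1471 features (upper panel) and 72 named genes (lower panel), with the 5 genes as red lines; 5 features lie outside the axis. GADD45G, PLK2, PMEPA1 and DUSP5 stand in the lower tail of all features, whose median is -0.02, and nearer to the bulk of the named genes, whose median is -1.34.

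The sizes of the changes were compared between the genes through the log2 ratio of each pair in every animal, with a two-sided exact permutation test and Benjamini-Hochberg adjustment over the 10 pairs. In 4 pairs the adjusted p was under 0.05. The genes were chosen with earlier results of these data known, so these p-values are not independent evidence that the changes differ. GADD45G changed more than BTG2 (difference of changes -2.83, exact permutation p = 0.0143, adjusted p = 0.0357), as did PLK2 (-2.26, exact permutation p = 0.00952, adjusted p = 0.0317). For GADD45G and PMEPA1 the difference was -1.16 (exact permutation adjusted p = 0.0317), but it was -0.33 (exact permutation adjusted p = 0.243) with the floor at the 10th percentile, which all pregnant GADD45G values fall under. The ratio of DUSP5 to BTG2 differed by -1.42 between the groups (exact permutation p = 0.00476, adjusted p = 0.0317).

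When 1 animal was left out, the difference stayed between -3.31 and -2.42 for GADD45G with BTG2, between -2.57 and -1.97 for PLK2 with BTG2, between -1.61 and -1.03 for DUSP5 with BTG2 and between -1.38 and -0.99 for GADD45G with PMEPA1. The number of pairs with an adjusted p under 0.05 ran from 0 to 6 in these fits, and it was 0 without pregnant 316, 426, 447 or 448 and without control 427 or 449. Leaving out a pregnant animal leaves 84 splits and a smallest p of 0.0119, and leaving out a control leaves a smallest p of 0.00794. These coarser p-values make it harder to pass after adjustment. Still, 4 pairs passed without control 330, 434 or 440 and 6 without control 404, so the calls depended on which animal was left out. With the floor at the 10th percentile PLK2 with BTG2 (-2.01) was the only one of the 4 pairs still under 0.05. GADD45G with BTG2 was at -1.79 (exact permutation adjusted p = 0.0952) and DUSP5 with BTG2 at -0.17 (exact permutation adjusted p = 0.243). PLK2 with DUSP5, which had -0.84 as deposited (exact permutation adjusted p = 0.19), was at -1.84 and under 0.05 with that floor. GADD45G and PLK2 were not separated (-0.57, exact permutation adjusted p = 0.17), nor were DUSP5 and PMEPA1 (0.25, exact permutation adjusted p = 0.776).

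The genes did not share their order among controls. BTG2, DUSP5 and PLK2 were each higher in controls 404, 434 and 449 than in controls 330, 427 and 440: BTG2 at 0.84 to 2.28 against 0.17 to 0.39, DUSP5 at 0.77 to 1.74 against 0.27 to 0.34, and PLK2 at 4.74 to 6.46 against 3.14 to 3.56. GADD45G and PMEPA1 did not follow this order. Control 404, the highest for BTG2 and DUSP5, was the lowest control for both GADD45G (1.37, against 1.39 to 3.61 in the others) and PMEPA1 (4.00, against 4.17 to 15.11). The medians of the 18KO columns of controls 404, 434 and 449 (2.70, 2.75 and 3.90) were also above those of controls 330, 427 and 440 (2.03 to 2.43).

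**Figure D4:**
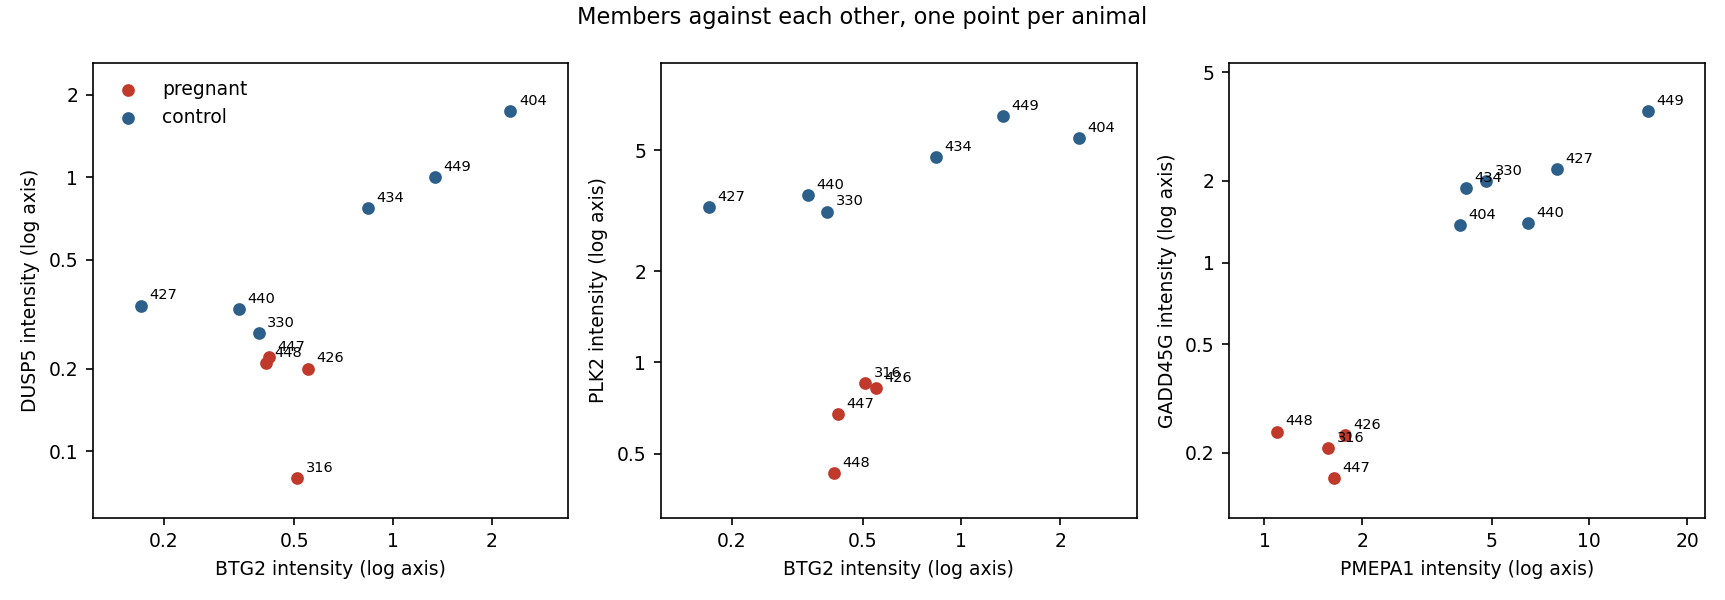
Intensity of DUSP5 against BTG2, PLK2 against BTG2 and GADD45G against PMEPA1 (log axes), with 1 point per animal. Controls 404, 434 and 449 stand to the upper right in the first 2 panels, while control 404 has the lowest control values of GADD45G (1.37) and PMEPA1 (4.00).

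Deviations from the group means were correlated over the 10 animals for all 10 pairs, with exact permutation within the groups and rho taken on ranks within each group. DUSP5 and BTG2 had r = 0.80 (exact p = 0.0265, adjusted p = 0.133) and rho = 0.47 (exact p = 0.258, adjusted p = 0.644), and r was 0.94 without the 2 animals farthest out in DUSP5. PLK2 and BTG2 had r = 0.74 (exact p = 0.0105, adjusted p = 0.105) and rho = 0.78 (exact p = 0.0281, adjusted p = 0.281), with r at 0.87 without the 2 animals farthest out in PLK2. None (0) of the 10 pairs passed after adjustment, and 2 had an unadjusted exact p under 0.05.

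The brightness of the arrays moved with these values. Deviations of the column median correlated with those of PLK2 at 0.91, of BTG2 at 0.69, of PMEPA1 at 0.56, of DUSP5 at 0.41 and of GADD45G at 0.38, over 10 animals. With column medians set equal, r was 0.73 for DUSP5 with BTG2 and 0.55 for PLK2 with BTG2. GADD45G and PMEPA1 had r = 0.67 (exact p = 0.0909, adjusted p = 0.303) and rho = 0.56 (exact p = 0.162, adjusted p = 0.644), which rested on the outermost animals, since r was -0.10 without the 2 farthest out in GADD45G.

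Among the 71 other named genes of the array, those whose deviations were most like the pattern of BTG2 were PTGS2, the inducible cyclooxygenase (r = 0.93), STC1, the hormone stanniocalcin (0.93), and the protease ADAMTS4 (0.90). PTGS2 had 1.11 to 1.85 in pregnant animals, against 7.60, 3.79 and 2.63 in controls 404, 449 and 434 and 1.99, 0.73 and 0.58 in controls 330, 440 and 427. PTGS2 thus ranked the controls as BTG2 did, and with column medians set equal r was 0.91. The genes most like DUSP5 were SLC25A25, a mitochondrial carrier (0.91), STC1 (0.82) and BTG2 (0.80). SLC25A25 had 0.35 to 0.47 in pregnant animals, against 2.09, 1.06 and 0.93 in controls 404, 434 and 449 and 0.32 to 0.40 in the others.

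PMEPA1 was most like RARRES1, a gene induced by retinoids (0.90), FADS1, a fatty acid desaturase (0.88), and SDC2, a syndecan of the cell surface (0.88). GADD45G was most like the tubulin TUBB (0.71), FADS1 (0.71) and TIMP1, an inhibitor of matrix proteases (0.70). With column medians set equal these were 0.67, 0.53 and 0.40. The 3 most like PLK2 were ZYX, a protein of focal adhesions (0.86), the tetraspanin CD81 (0.85) and MAGED1 (0.84), and these values were 0.48, 0.47 and 0.31 with column medians set equal. CD81 was not called (1.35 ± 0.37, limma adjusted p = 0.0283), and its groups overlapped. These correlations are over 10 animals that share arrays, and the genes were picked as the highest of 71.

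Of the early response and stress list apart from the 5 genes, 4 of 63 genes had a name on the array, and limma called 0 of them, while 3 had an unadjusted p under 0.05. EPAS1, a hypoxia-inducible transcription factor, had a change of 1.45 ± 0.37 (limma adjusted p = 0.0212) and TXNIP, an inhibitor of thioredoxin, 1.53 ± 0.41 (limma adjusted p = 0.0259). HSPA5, a chaperone of the endoplasmic reticulum, had -1.42 ± 0.37 (limma adjusted p = 0.0244). The values of EPAS1 and TXNIP thus lay on the other side of 0 from GADD45G and PLK2.

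ZFP36, an early response gene whose protein destabilises messenger RNAs, had a change of -0.14 ± 0.58 (limma adjusted p = 0.917). Its intensities were 4.18, 4.06, 5.73 and 1.71 in pregnant animals 316, 426, 447 and 448, against 2.00, 12.88, 1.57, 8.29, 1.89 and 5.99 in controls 330, 404, 427, 434, 440 and 449. The same 3 controls as for BTG2 were high, and the pregnant animals lay between them and the other controls except pregnant 448, which was inside the range of the lower controls.

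Of the transforming growth factor beta list, 7 of 40 genes had a name and 5 were called lower, 0 higher, with a median of -1.73, where 29.2% of all named genes were called lower and their median was -1.34. TNC, a matrix glycoprotein, had 0.373 to 0.900 in pregnant animals, against 15.99, 10.27, 8.25, 5.29, 1.72 and 1.65 in controls 449, 427, 440, 330, 404 and 434 (-3.26 ± 0.59, limma adjusted p = 0.00291). Like PMEPA1, it was highest in control 449, the brightest array, and lowest among controls in 404 and 434. The markers COL6A3 and MYLK, which are not on this list, shared that pattern, while COL1A1, TIMP1 and ACTA2 of the list did not. COL1A1 (-2.28 ± 0.41), TIMP1 (-2.19 ± 0.43) and the smooth muscle actin ACTA2 (-1.41 ± 0.28) fell as well. Of the genes called, COL1A1, COL3A1 and TNC code for matrix proteins. COL1A1, COL1A2, COL3A1 and ACTA2 are counted again below among the stroma and smooth muscle markers, so the 2 sets of counts are not separate observations.

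Of the cell division list, 3 of 29 genes had a name, all tubulins, which serve the cytoskeleton as well as the mitotic spindle. TUBB (-1.47 ± 0.27) and TUBB6 (-1.54 ± 0.31) fell, 2 of 3 against the same 29.2% of named genes, and TUBA1A was not called (-1.36 ± 0.32, limma adjusted p = 0.0153).

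Some collagen markers and the smooth muscle markers were called lower in pregnant animals, as GADD45G, PLK2 and PMEPA1 were. Other markers were not called, or were called higher. Of 6 stroma markers with a name, 3 were called lower (COL6A3, COL1A1 and COL3A1) and NR2F2 higher. The change of NR2F2 was 1.52 ± 0.33 (limma adjusted p = 0.0096), but its groups overlapped, with 1.09 in pregnant 448 and 1.26 in control 449. COL1A2 (-1.73 ± 0.46, limma adjusted p = 0.0253) and FBLN1 (-1.06 ± 0.38, limma adjusted p = 0.0833) were below 0 but not called. The mean log2 level of the 6 was 2.70 to 4.46 in pregnant animals and 4.51 to 5.94 in controls. Both smooth muscle markers, ACTA2 and MYLK, fell, with a mean log2 level of 0.91 to 2.03 in pregnant animals and 2.72 to 3.87 in controls. Of 2 epithelial markers 0 were called by limma and both had an unadjusted p under 0.05, CLDN4 at 1.96 ± 0.58 and CLDN10 at -1.93 ± 0.77, and their mean log2 level was 1.82 to 2.40 in pregnant animals and 1.03 to 3.27 in controls. Endothelial, immune, trophoblast and blood markers had 0 named genes here. The part of cell composition in the lower levels of GADD45G, PLK2 and PMEPA1 was not tested.

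The columns were used as deposited, and their medians, 1.67 to 2.36 in pregnant and 2.03 to 3.90 in control animals, differ. Setting them equal gave all clones a median change of 0.27, against -0.06 as deposited. GADD45G (-2.91), PLK2 (-2.34) and PMEPA1 (-1.75) were called lower under that scaling too, and DUSP5 (-1.50) and BTG2 (-0.08) were not. DUSP5 was called under some other settings, among them age in months as a covariate (-2.23) and adjustment over the 72 named genes alone (limma adjusted p = 0.00568). With age as a covariate the median change over all features was -0.18, against -0.02 as deposited. The named genes were sequenced mainly because they differed between these same animals, and 50 of 72 were called when adjusted alone. That call is therefore no independent evidence for DUSP5.

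**Figure D5:**
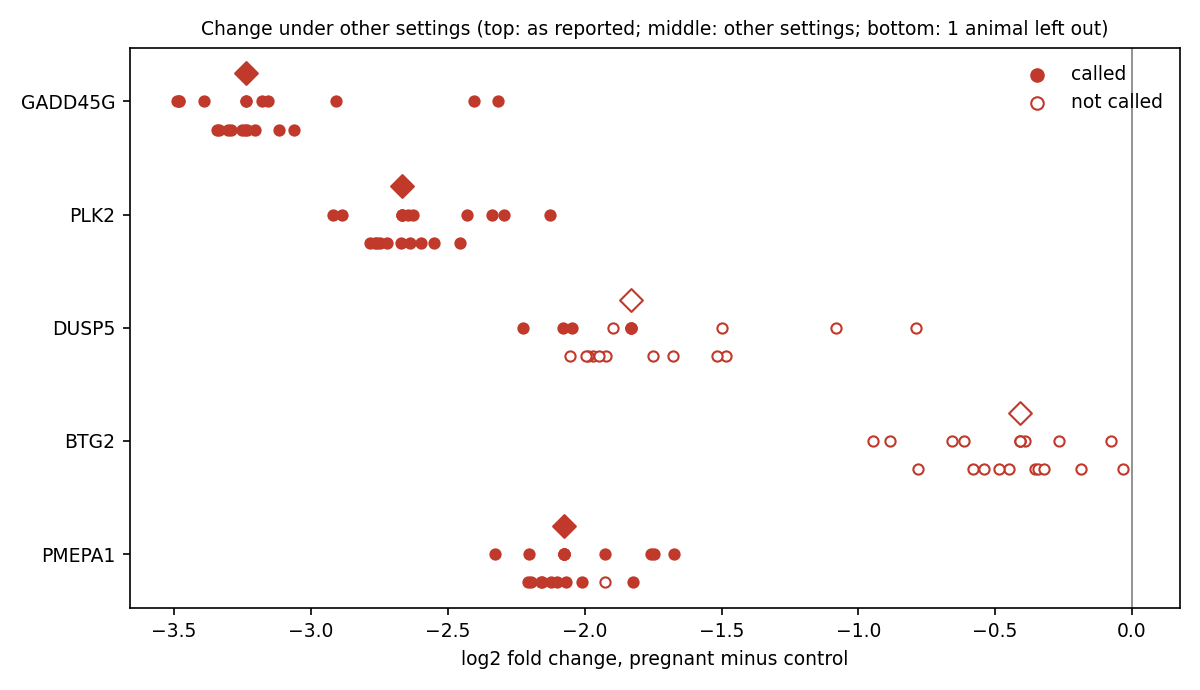
Log2 fold change, pregnant minus control, of each gene as reported (diamond), under other settings (middle row of circles) and with 1 animal left out (bottom row of circles); filled symbols are called. GADD45G and PLK2 are called throughout, PMEPA1 everywhere except without pregnant 448 (-1.93), DUSP5 under some settings, and BTG2 under none of them.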

How the data were processed

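RNA of 10 animals was measured on the 18KO array, 1 array each. The authors deposited 1 linear intensity per spot and animal. Background subtraction and scaling are not given in the sources used here, except that, per the labels, the later array of pregnant 316 was placed by its ratios to 2 other samples. Clones were named through the annotation of the platform, whose symbols may be outdated; the 5 members' identifiers had the same symbol in RefSeq (ARS-UCD2.0). The other columns numbered 0. Intensities were raised to a floor of 0.01 (103 values lay at or below it) and taken to log2, and clones of a gene were averaged. Groups were compared with limma 3.58.1 in R 4.3.3 (lmFit, eBayes, Benjamini-Hochberg) over all features, tested on simulated data. Permutation tests were exact and two-sided. The members, lists and markers were chosen with earlier results of these data known. Named besides the members were up to 4 genes per list by smallest p and the 3 genes most like each member, plus cell type markers. Alternatives were 3 other scalings, the 10th percentile as floor, the 5th percentile added as pseudocount, removal of the 25% dimmest clones, adjustment over named genes, array weights, a robust trended prior, age, the brightest clone, an adjusted p of 0.05 and leaving out each animal. Sequences and promoters were not analysed here. Columns within a group correlated at 0.94 to 0.98 (log2), and columns of different groups at 0.87 to 0.95. These correlations cover all clones and do not give the precision of a single gene. The small number of animals and low signal both limit precision. Figures were drawn with matplotlib 3.10.9.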

Additional observations from a re-analysis of the deposited data

Results flagged for a closer look

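In 26 groups of 4 or 6 animals, the 5 gene means and the 8 clones of GADD45G and PLK2 were examined for a single animal far from the others by Dixon's criterion, which chance meets in about 1 of 20 groups. It was met 2 times. DUSP5 in pregnant 316 had an intensity of 0.08, against 0.20 in the next lowest pregnant animal, a gap of 0.906 of the group's log2 range. This is the animal whose 18KO array was hybridised later. The brightest PLK2 clone in pregnant 448 had 0.92, against 1.65 in the next lowest, a gap of 0.97 of the range. The 18KO column of pregnant 448 also had the lowest median of the 10 columns of that array, 1.67.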

How the results depend on the processing

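GADD45G and PLK2 were called lower in each of the 22 other settings run (-3.49 to -2.32 and -2.92 to -2.13), and PMEPA1 in 21 of 22, with a range of -2.21 to -1.82 when 1 animal was left out. DUSP5 was called with 1 factor per animal from both arrays (-2.08), array weights (-2.05) and age as a covariate (-2.23). It was also called with adjustment over named genes only (-1.83) and at an adjusted p of 0.05 (-1.83). In the 10 fits without 1 animal DUSP5 was called in 0 (-2.05 to -1.48). The median change over all features was -0.27 with 1 factor per animal and -0.18 with age, against -0.02 as deposited. Adjustment over named genes only is over genes named mainly because they differed between these animals. BTG2 was called in 0 of 21 settings (-0.94 to -0.03). Without the dimmest 25% of clones DUSP5 and BTG2 gave no value, since their clones were left out. The pairs of members with an adjusted p under 0.05 numbered 4 as reported, 2 with the floor at the 10th percentile and 0 to 6 without 1 animal. Of all features, 57 were called lower and 13 higher, against 62 and 80 with equal column medians, 70 and 52 after quantile normalization, 159 and 12 with 1 factor per animal, 90 and 30 with array weights, 34 and 9 without pregnant 426 and 24 and 9 without pregnant 448; named genes called lower were 21 as reported, 10 with the floor at the 10th percentile, 32 with array weights, 43 adjusted over named genes, 48 with 1 factor per animal and 4 without pregnant 448. The causes were not tested. No paired analysis was possible because pregnant and control animals share no number. Low signal limits DUSP5, BTG2 and the pregnant values of GADD45G.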
